A study of Mus musculus with 2 samples.

Results

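The 9 miRNA genes described here, Mir137, Mir153, Mir128-1, Mir128-2, Mir218-1, Mir218-2, Mir9-1, Mir9-2 and Mir9-3, encode 5 miRNAs best known from neurons. They were taken by name from the 2202 miRNA genes that were counted in small RNA libraries of the adrenal gland, and each name matched 1 row. The 2 libraries came from female B6CASTF1/J mice aged 25 days, which are F1 offspring of C57BL/6J and the wild-derived CAST/EiJ. Both form 1 group with no treatment and no control, so nothing but the difference between the libraries can be compared. The labels carry a separate animal number for each library but the same donor identifier for both. Whether the libraries came from different animals is thus not settled. The spread between libraries can hold animal, dissection and library preparation together, and these cannot be told apart.

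A miRNA is cut from a hairpin in a longer transcript, and either arm of the hairpin can yield the mature miRNA of about the length of the reads counted here. The seed, bases 2 to 8 of the mature miRNA, pairs with target mRNAs, so miRNAs with the same seed share many targets. The adrenal medulla is made of chromaffin cells, which arise from the neural crest like sympathetic neurons and secrete catecholamines from dense-core vesicles. The surrounding cortex makes steroid hormones, and the samples are labelled as adrenal gland tissue with neither part named. The label of chromaffin lineage could not be tested, since no count in these libraries is resolved by cell type. In such tissue, fewer cells of a type and less RNA per cell cannot be told apart.

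The mature sequences are shown first, because which arms are unique decides which reads of the 9 genes could be counted. RefSeq (GRCm38.p6) held the hairpin and both arms of all 9 genes. Capitals mark the seed, and the arm named in each line is the one known as the main product, read 5′ to 3′.
miR-137-3p: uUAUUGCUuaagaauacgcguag
miR-153-3p: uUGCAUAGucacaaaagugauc
miR-128-3p: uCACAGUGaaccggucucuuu
miR-218-5p: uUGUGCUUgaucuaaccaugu
miR-9-5p: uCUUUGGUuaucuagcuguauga

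No 2 of these 5 miRNAs have the same seed. The seed of miR-218-5p stands at the same bases in miR-7002-3p, whose gene Mir7002 had 0 reads in both libraries, and the other 4 seeds stand at bases 2 to 8 of no other listed miRNA. Shifted by 1 base to bases 1 to 7, the miR-128 seed CACAGUG occurs in miR-216a-3p and the miR-218 seed in miR-7008-3p and miR-7026-3p. Their genes Mir216a, Mir7008 and Mir7026 had at most 4 reads in a library. Shifted by 1 base the other way, at bases 3 to 9, the miR-128 seed also occurs in miR-27a-3p and miR-27b-3p. Those are products of genes well expressed in the gland, with 3605 reads of Mir27a in library 2 and 2981 in library 1, and 14412 reads of Mir27b in library 2 and 14688 in library 1.

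Mir137 and Mir153 are single genes in the mouse, and neither of their arms had an exact copy in the hairpin of another listed locus. Mir128-1 and Mir128-2 give the identical miR-128-3p, and Mir218-1 and Mir218-2 the identical miR-218-5p. Their other arms differ between the copies.
miR-128-1-5p: cGGGGCCGuagcacugucuga
miR-128-2-5p: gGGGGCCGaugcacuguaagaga
miR-218-1-3p: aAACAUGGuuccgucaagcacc
miR-218-2-3p: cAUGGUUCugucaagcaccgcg

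The miR-128 other arms differ at 5 of 21 aligned bases and have the same seed. The miR-218 other arms differ at 1 of the 19 bases over which they align, but start 3 bases apart and so have different seeds. Mir9-1, Mir9-2 and Mir9-3 have both arms in common, miR-9-5p above and the arm miR-9-3p.
miR-9-3p: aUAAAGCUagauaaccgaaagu

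The deposited tables hold reads that map to several places in a separate row and in no gene count. A read from the first base of miR-128-3p is unique to 1 of the 2 hairpins only when it runs 1 base past the annotated end, at 22 bases, and a read from the first base of miR-218-5p when it reaches 23 bases. A read of miR-9-5p must reach 27 bases from the arm's start in each of the 3 hairpins, while the libraries were made from RNA of less than 30 bases. For miR-9-3p the length is 28 bases in Mir9-1 and Mir9-2 but 24 bases in Mir9-3. The counts of the miR-128 and miR-218 genes thus rest on the other arms and on lengthened or shifted reads of the main arm, which the gene counts do not separate. For the miR-9 genes, no read that matches an annotated arm exactly from end to end can be counted, while lengthened or shifted reads can be where they are unique. Of the windows of 22 bases, all 52 in the Mir137 hairpin and all 48 in that of Mir153 were found in no other listed hairpin and no transcript of another gene. In the miR-128 hairpins this held for 47 of 49 windows of Mir128-1 and 53 of 55 of Mir128-2, and in each miR-218 hairpin for 88 of 89. It held for 44 of 68 windows of Mir9-1, 27 of 51 of Mir9-2 and 60 of 69 of Mir9-3.

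**Figure D1:**
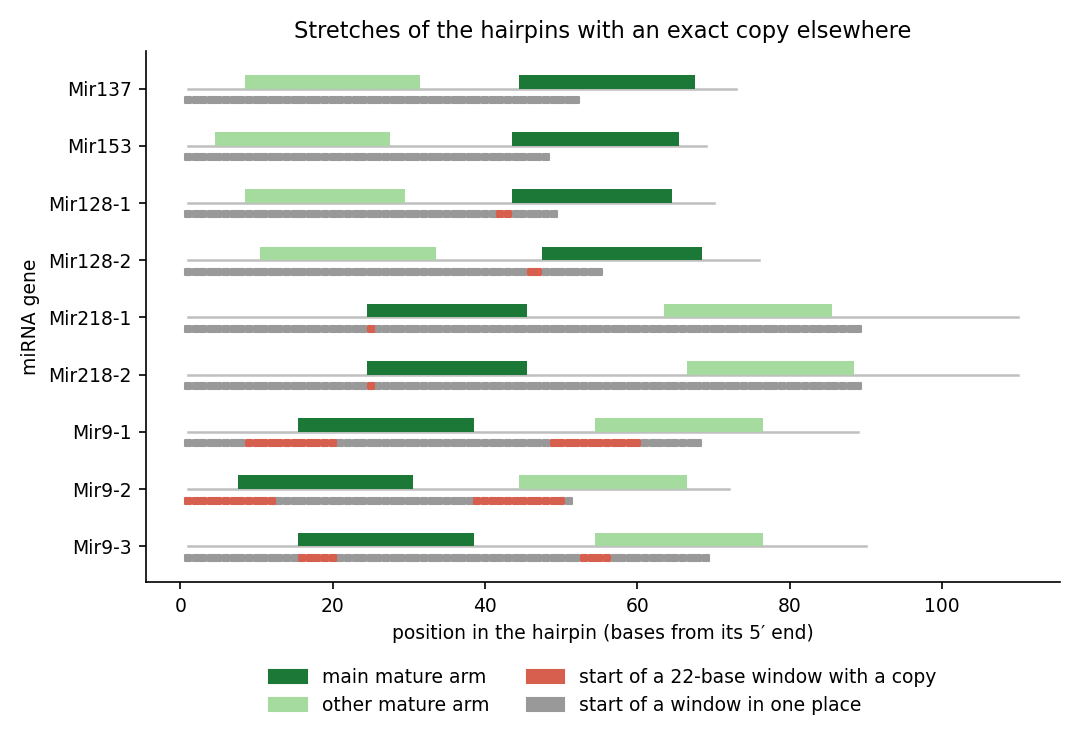
Hairpins of the 9 miRNA genes drawn to scale, with the position from the 5′ end in bases on the horizontal axis, the main arm in dark green and the other arm in light green. Squares under each hairpin mark the starts of windows of 22 bases, red where an exact copy lies elsewhere; in the miR-9 hairpins red starts run to both arms, while Mir137 and Mir153 have none.

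In mm10, with GENCODE M21, each gene lies in a longer gene on its own strand. Mir137 (ENSMUSG00000065569.2, plus strand, chr3:118433857-118433929) overlaps an exon of the noncoding gene Gm26871. Mir153 (ENSMUSG00000065538.1, plus strand, chr12:117250817-117250885) lies in an intron of Ptprn2, which encodes a membrane protein of dense-core vesicles. Mir128-1 (ENSMUSG00000065520.2, plus strand, chr1:128202361-128202430) lies in an intron of R3hdm1, and Mir128-2 (ENSMUSG00000065441.2, minus strand, chr9:112118636-112118711) in an intron of Arpp21, which encodes a phosphoprotein of neurons regulated by cyclic AMP. Mir218-1 (ENSMUSG00000065603.1, plus strand, chr5:48223942-48224051) and Mir218-2 (ENSMUSG00000065583.1, plus strand, chr11:35616816-35616925) lie in introns of Slit2 and Slit3, which encode secreted axon guidance ligands of Robo receptors. Mir9-1 (ENSMUSG00000106493.1, plus strand, chr3:88215598-88215686) lies in an intron of the lincRNA gene Gm3764. Mir9-2 (ENSMUSG00000065424.2, plus strand, chr13:83738814-83738885) overlaps an exon of the lincRNA gene C130071C03Rik. Mir9-3 (ENSMUSG00000093238.1, plus strand, chr7:79505264-79505353) lies in an intron of Mir9-3hg. The host transcripts were not measured in small RNA libraries.

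Of the 11132685 reads of library 2, 3912280 (35.1%) lay on a miRNA gene's own strand, and of the 7938596 reads of library 1, 2244073 (28.3%) did. Levels are counts scaled to the sum of these reads (CPM). They were not divided by length, since a read is a whole small RNA and the arms of these genes are 21 to 23 bases long. Library 2 held more reads of red blood cell miRNAs, with a summed level of 25715 CPM against 680 CPM in library 1 for the 3 erythroid genes. Mir144 and Mir451a carried this sum, while Mir486 had 22.0 CPM in library 2 and 47.7 CPM in library 1. Library 1 held more of the hepatocyte miRNA gene Mir122, with 491 CPM in library 2 against 5185 CPM in library 1. The endothelial gene Mir126a had 121007 CPM in library 2 and 53763 CPM in library 1. The smooth muscle and fibroblast genes summed to 41834 CPM in library 2 and 28940 CPM in library 1, and the leukocyte genes to 1612 CPM in library 2 and 2126 CPM in library 1. Members of both lists went both ways. Mir143 (40553 CPM in library 2, 27293 CPM in library 1) made up most of the first sum, and Mir214 had 449 CPM in library 2 and 781 CPM in library 1. Of the leukocyte genes, Mir142 had 337 CPM in library 2 and 199 CPM in library 1, and Mir223 had 25.0 CPM in library 2 and 116 CPM in library 1. The part of these differences in the results below was not tested. The summed level of the striated muscle genes was 3.32 CPM in library 2 and 5.79 CPM in library 1, with 6 of 9 genes at 0 in both. The 3 genes listed for neurons, Mir124a-1, Mir124a-2 and Mir124a-3, had 0 reads in both libraries. These counts leave out reads that map to several places.

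All 9 genes together had 3531 reads in library 2 and 1184 in library 1, which is 903 CPM in library 2 and 528 CPM in library 1, or a mean of 715 ± 265 CPM (SD, n = 2). They made up 0.0903% of the miRNA reads in library 2 and 0.0528% in library 1. Mir137 gave most of this, with 88.0% of the reads of the 9 genes in library 2 and 79.8% in library 1. The other 8 genes summed to 108 CPM in library 2 and 107 CPM in library 1, a sum in which Mir153 was higher and Mir128-1 lower in library 2. With 10 or more reads in each library counted as detected, 5 of the 9 genes were detected, Mir137, Mir153, Mir128-1, Mir218-1 and Mir218-2. Over all genes 337 of 2202 (15.3%) were. No gene of the 9 had a read on the opposite strand in either library.

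Mir137, whose miRNA is known for its part in neuronal maturation, had 3107 reads (794 CPM) in library 2 and 945 reads (421 CPM) in library 1. Its mean of 608 ± 264 CPM (SD, n = 2) placed it 104th of the 2202 genes, and it was 88th in library 2 and 117th in library 1. In mean level it stood between Mir214, a miRNA gene of mesenchymal cells, with 615 CPM, and Mir148a with 587 CPM. It was the only one of the 9 genes above the median level of the 337 detected genes, 156 CPM. Its reads exceeded those of Mir153 by a factor of 18.2 in library 2 and 31.5 in library 1.

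Mir153, in an intron of the vesicle protein gene Ptprn2, had 171 reads (43.7 CPM, 95% interval 37.4 to 50.8) in library 2 and 30 reads (13.4 CPM, 9.02 to 19.1) in library 1. These and the other intervals for levels and shares are exact Clopper-Pearson intervals, which cover counting error only, and PCR copies were not removed by molecular identifiers. The mean of Mir153 was 28.5 ± 21.5 CPM (SD, n = 2), in 248th place. Its neighbours in mean level were Mir196a-1 with 28.6 CPM and Mir302a with 27.4 CPM.

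Of the miR-128 genes, Mir128-1 had 86 reads (22.0 CPM) in library 2 and 115 reads (51.2 CPM) in library 1, with a mean of 36.6 ± 20.7 CPM (SD, n = 2). Mir128-2 had 3 reads (0.767 CPM) in library 2 and 7 reads (3.12 CPM) in library 1, and was not detected by the limit of 10 reads. In brain, miR-128 dampens the excitability of mouse neurons. Mir128-1 took 96.6% of the reads of both copies in library 2 (95% interval 90.5 to 99.3%) and 94.3% in library 1 (88.5 to 97.7%). The copy in R3hdm1 thus gave more countable reads than the copy in the neuronal gene Arpp21 in both libraries. How many reads of the shared arm came from either copy cannot be told from these counts.

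The miR-218 genes were close in level between the libraries. Their miRNA is abundant in mouse motor neurons, and its genes sit in the guidance genes Slit2 and Slit3. Mir218-2, in Slit3, had 132 reads (33.7 CPM) in library 2 and 64 reads (28.5 CPM) in library 1, a mean of 31.1 ± 3.69 CPM (SD, n = 2). Mir218-1, in Slit2, had 31 reads (7.92 CPM) in library 2 and 22 reads (9.80 CPM) in library 1, a mean of 8.86 ± 1.33 CPM (SD, n = 2). Mir218-2 took 81.0% of the reads of both copies in library 2 (95% interval 74.1 to 86.7%) and 74.4% in library 1 (63.9 to 83.2%). The intervals of the libraries overlap, and in both the Slit3 copy was higher, by a factor of 4.26 in library 2 and 2.91 in library 1. The other arms of this pair differ at 1 aligned base, so the division of reads between the copies is uncertain.

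The miR-9 genes, whose miRNA acts in neural progenitors and neurons, were nearly without counted reads. Mir9-1 had 1 read in library 2 and 0 in library 1, Mir9-2 had 0 in both, and Mir9-3 had 0 in library 2 and 1 in library 1. For drawing, a count of 0 was set at 3 reads, or 0.767 CPM in library 2 and 1.34 CPM in library 1. A count of 1 was drawn at its own level, so a gene with 0 reads is drawn above a gene with 1 read. The exact 95% interval of a count of 0 reaches 0.943 CPM in library 2 and 1.64 CPM in library 1, for reads that map to 1 place. For reads of the mature arms, which all 3 hairpins share, these counts set no limit. Reads mapped to several places numbered 3064114 (27.5%) in library 2 and 2252189 (28.4%) in library 1, and how many were miR-9 is not in the tables. On the opposite strand of Mir9-1 the annotation has a further miRNA gene, Gm25641. In the unstranded counts the single read of Mir9-1 was absent.

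Detection was also counted by how far arms are shared over all listed genes. Among the genes with both arms in RefSeq, 3 of 19 whose every arm had an exact copy in another hairpin locus were detected (15.8%). This compares with 39 of 55 genes with 1 of the arms shared (70.9%) and 210 of 583 genes with no arm shared (36.0%). The median gene with every arm shared had 0 reads in both libraries, against 77 reads in library 2 and 56 in library 1 for genes with 1 arm shared, and 3 reads in library 2 and 2 in library 1 for genes with no arm shared. The 19 genes include the miR-9 genes, and without them 3 of 16 were detected. The 16 still hold Gm25641, on the opposite strand of Mir9-1, with 0 reads in both libraries. The miR-9 genes belong to the first of these classes, the miR-128 and miR-218 genes to the second, and Mir137 and Mir153 to the third. The classes also differ in which genes they hold, and the part of arm sharing in these shares was not tested.

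**Figure D2:**
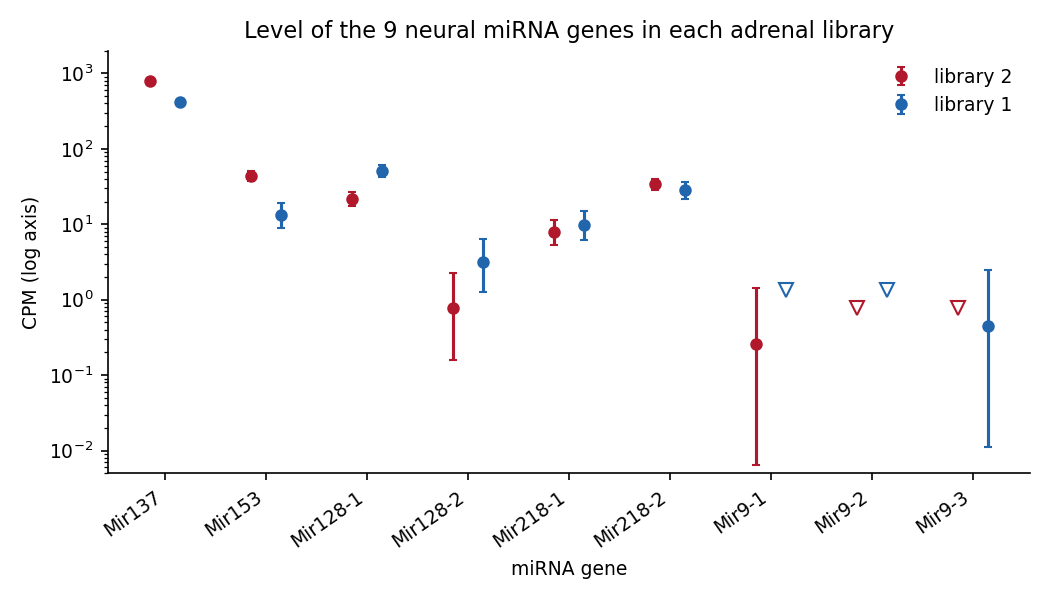
Level of each of the 9 genes in library 2 (red) and library 1 (blue) in CPM on a log axis, with exact 95% intervals for counting error and open triangles at the level of 3 reads where a gene had 0. Mir137 stands alone at 794 CPM in library 2 and 421 CPM in library 1. Mir153, Mir128-1 and Mir218-2 lie between 13.4 and 51.2 CPM, and no miR-9 gene had more than 1 read. The triangles of genes with 0 reads stand above the points of genes with 1 read.

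By mean level the order was Mir137, Mir128-1, Mir218-2, Mir153, Mir218-1 and Mir128-2, with the miR-9 genes last. The places of Mir128-1, Mir218-2 and Mir153 were reversed between the libraries. In library 2 the order of the 3 was Mir153, Mir218-2 and Mir128-1, and in library 1 it was Mir128-1, Mir218-2 and Mir153. Their means differed by less than the SD of Mir153 or of Mir128-1. Mir137 lay above all of them in both libraries, and Mir218-1 below all of them in both.

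Whether a gene differed between the libraries was asked with an exact binomial test of its reads, given their sum, with the library sizes scaled by edgeR's TMM. The test was run over the 411 genes with 10 or more reads in all and adjusted by Benjamini and Hochberg. It compares these 2 libraries and not conditions, and it takes reads as the unit. A gene was called with an adjusted p under 0.05 and a fold of 1.5 or more. Over all genes 129 of 411 were called (31.4%), 62 higher in library 2 (15.1% of those tested) and 67 higher in library 1 (16.3%). Of all calls 48.1% were higher in library 2, and 66.4% with no filter on low counts, which also changes the scaling. Scaling by TMM without the filter put the median log2 ratio of the tested genes at 0.09, against -0.07 with it.

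Of the 9 genes, 6 had enough reads for the test, and 3 were called, Mir137 and Mir153 higher in library 2 and Mir128-1 higher in library 1. Next to 31.4% of all genes called, 3 of 6 genes is a small count from which no departure can be read.

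Mir137 was 2.00-fold higher in library 2 (95% interval 1.86 to 2.16, log2 ratio 1.00, exact binomial test, adjusted p = 9.45e-86). Of the 337 detected genes, 24 had a ratio as high, itself included. Mir153 was 3.42-fold higher in library 2 (95% interval 2.34 to 5.30, log2 ratio 1.78, exact binomial test, adjusted p = 3.74e-12), and 4 detected genes had a ratio as high, itself included. Both ratios lay above the 90th percentile of the detected genes, a log2 ratio of 0.79.

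Mir128-1 went the other way, with a log2 ratio of -1.13 (95% interval -1.56 to -0.72, exact binomial test, adjusted p = 9.46e-08), a level 2.19-fold lower in library 2 than in library 1. Of the detected genes, 18 had a ratio as low, and the 10th percentile was -0.95. Its copy Mir128-2 had a log2 ratio of -1.82 (95% interval -4.52 to 0.19, exact binomial test, adjusted p = 0.0802), which rests on 10 reads and did not pass. Mir218-2 had a log2 ratio of 0.32 (95% interval -0.11 to 0.78, exact binomial test, adjusted p = 0.209) and Mir218-1 of -0.23 (95% interval -1.06 to 0.64, adjusted p = 0.671). Neither passed, and their intervals allow a difference of more than 1.5-fold. With TMM scaling on all genes with reads, Mir218-2 passed the p threshold with a log2 ratio of 0.49 (exact binomial test, adjusted p = 0.0427, range over 5 alternatives 0.0427 to 0.394), below the fold of 1.5.

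**Figure D3:**
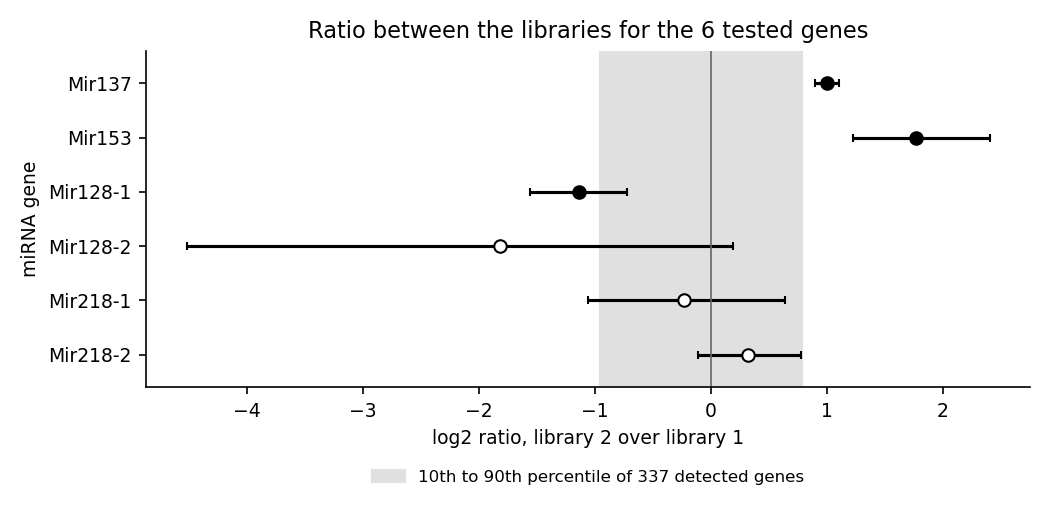
Log2 ratio of library 2 over library 1 for the 6 tested genes with exact 95% intervals for counting error, filled points for called genes, and a grey band from the 10th to the 90th percentile of the detected genes (-0.95 to 0.79). Mir137 and Mir153 lie above the band, Mir128-1 below it, and the interval of Mir128-2, from 10 reads, spans from -4.52 to 0.19.

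**Figure D4:**
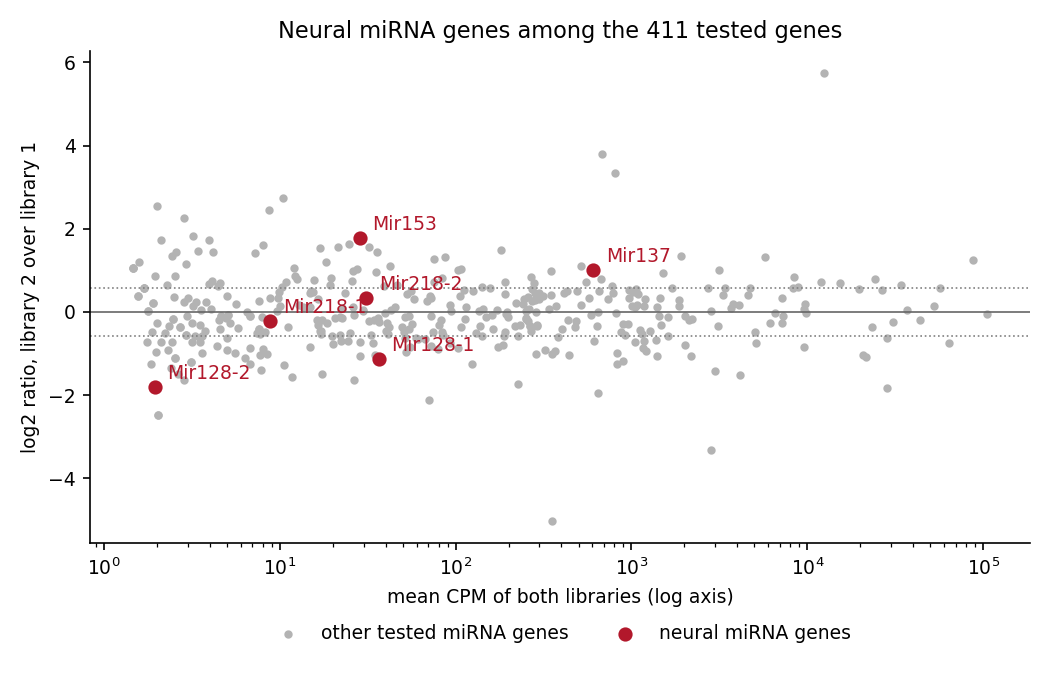
Log2 ratio of library 2 over library 1 against the mean CPM of both libraries (log axis) for the 411 tested miRNA genes, with the neural genes in red and dotted lines at a fold of 1.5. Mir153 and Mir137 lie above the upper dotted line and Mir128-1 below the lower one, with other genes farther out on both sides.

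Other miRNA genes known from neurons or endocrine cells were counted as a list of 32 genes, of which 23 were detected (71.9%, against 15.3% of all genes). Of the 23 tested, 9 were called higher in library 2, 2 higher in library 1 and 12 were not called. That is 39.1% higher in library 2 and 47.8% called in all, against 15.1% and 31.4% of all 411 tested genes. The list was chosen with earlier results of these data known. The median log2 ratio was 0.46, against -0.07 over all 411 tested genes and 0.05 over the 6 tested genes described above. The most abundant were Mir375, a miRNA gene of endocrine cells, with 36561 CPM in library 2 and 37574 CPM in library 1, and Mir7b, a neuroendocrine one, with 5543 CPM in library 2 and 3921 CPM in library 1. Mir132, which cyclic AMP signalling induces in neurons, had 524 CPM in library 2 and 1270 CPM in library 1, and Mir708 had 909 CPM in library 2 and 631 CPM in library 1. Mir137 thus had a mean level below Mir708 (770 CPM) and lay far below Mir375 (37067 CPM).

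**Figure D5:**
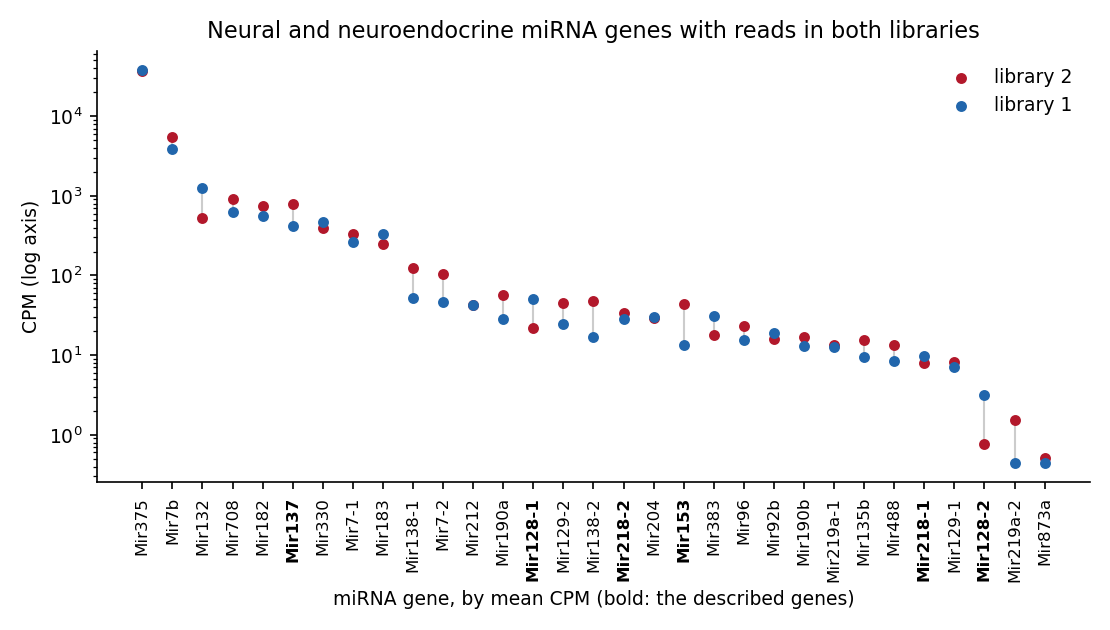
Level in library 2 (red) and library 1 (blue), in CPM on a log axis, of the 31 neural and neuroendocrine miRNA genes with reads in both libraries, ordered by mean level, with the genes described here in bold. Mir375 leads at 36561 CPM in library 2 and 37574 CPM in library 1, Mir137 stands sixth, and Mir128-2 is among the lowest.

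The 4 genes listed for neuroendocrine and chromaffin cells, Mir375, Mir7b, Mir7-1 and Mir7-2, were all detected, with a summed level of 42544 CPM in library 2 and 41802 CPM in library 1. Mir7b (log2 ratio 0.59) and Mir7-2 (log2 ratio 1.26) were called higher in library 2 by the exact binomial test, while Mir375 (log2 ratio 0.05) and Mir7-1 (log2 ratio 0.44) were not. Over all tested genes 15.1% were called higher in library 2. Mir7b lay at the fold limit, and with library size alone, an alternative chosen after seeing the data, its log2 ratio was 0.50 and it was not called. With that scaling the ratio of Mir375 turned to -0.04. Most of the summed level of these markers is Mir375. The part of cell composition in the difference of Mir137 between the libraries was not tested.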

How the data were processed

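Small RNA of under 30 bases, per the labels, was sequenced from adrenal gland tissue in 2 libraries. The authors deposited raw counts of reads per miRNA gene, 1 table per library, mapped to mm10 and counted on GENCODE M21, per the labels and the text deposited with the tables. The aligner, the counter and any trimming are not stated in the sources used for this text. The 3 unnamed columns were read, from layout and totals, as unstranded counts and counts on either strand, and the stranded column with the larger total was used. Unmapped reads (27.8% in library 2, 33.8% in library 1), reads mapped to several places (27.5% in library 2, 28.4% in library 1) and reads outside miRNA genes (9.53% in library 2, 9.57% in library 1) did not enter the library sizes. The animals carry a CAST genome, whose reads can map less well.

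Counts were analysed with Python 3.11.15, pandas 2.3.3, scipy 1.17.1, R 4.3.3, edgeR 4.0.16 and, for an alternative scaling, DESeq2 1.42.0. With 1 group a quasi-likelihood test has no coefficient, so an exact binomial test was run across all genes. That test has no term for spread between animals. For log2 ratios 0.5 read was added to each count, and intervals are exact at 95%. Arms were searched in 1005 RefSeq hairpin entries at 981 loci and in GENCODE M21 transcripts by exact match on both strands, and not in the whole genome. Members and lists were chosen with earlier results of these data known. Named are all 9 genes, the 4 most abundant of a list of 32, neighbours in level, markers of other cell types and genes with a shared seed.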

Additional observations from a re-analysis of the deposited data

How the results depend on the processing

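No paired analysis was possible because all samples form 1 group. The summed level of the 9 genes, a mean of 715 CPM, was 233 CPM when scaled to all reads of each library, a larger denominator by construction. In the unstranded column it was 878 CPM, over smaller totals of 3078994 reads in library 2 and 1939752 in library 1. That column held no more reads of the 9 genes. The summed level was 727 CPM without Mir451a and Mir144 in the total, and leaving out 1 library gave 528 to 903 CPM. At a limit of 100 reads in each library, 1 of the 9 genes, Mir137, was detected in place of 5, among 223 genes in all. The 3 calls between libraries, 2 higher in library 2 and 1 in library 1, had the same number and directions under the 7 alternatives for scaling, filter, fold limit and column. The log2 ratio ranged from 0.91 to 1.17 for Mir137, from 1.69 to 1.94 for Mir153 and from -1.22 to -0.97 for Mir128-1. Leaving out 1 library gave a share of 94.3 to 96.6% for Mir128-1 and 74.4 to 81.0% for Mir218-2. Among the 4 neuroendocrine markers, in alternatives chosen after seeing the data, Mir7b was not called with library size alone, and Mir7-1 was called with unfiltered TMM (log2 ratio 0.61). Mir128-2 rests on 10 reads in all.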
